A study of Mus musculus with 12 samples.

Results

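The EGF-family ligands and their ErbB receptors were followed here in 12 RNA-seq libraries of cultured neonatal mouse cardiomyocytes. The set holds 10 genes, chosen by name, of the 55416 genes in the deposited table. There were 6 ligands (Hbegf, Areg, Ereg, Tgfa, Btc and Nrg1) and 4 receptors (Egfr, Erbb2, Erbb3 and Erbb4). All 10 passed the filter on low values (a mean of at least 1), as did 21799 genes in all.

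The libraries fell into 4 groups of 3. Cells received PBS (vehicle) or phenylephrine (PE), an agonist of alpha-1 adrenergic receptors that makes cardiomyocytes grow, for 24 hours. Within each of these, cells received a negative-control GapmeR or a GapmeR against lincRNA-p21. A GapmeR is a short antisense molecule through which RNase H cuts the target RNA, and lincRNA-p21 is a long noncoding RNA listed as Trp53cor1 and known as a p53 target. Every group carried a GapmeR, so none shows untreated cells. The labels used here give no strain, exact age, sex, dose, number of pooled animals or purity of the cultures. Nor do they say that the 3 libraries of a group came from separate cultures or animals, so the p-values reflect the spread of these libraries alone, which may be technical.

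ErbB receptors are cell-surface tyrosine kinases that work in pairs. Egfr binds HB-EGF (Hbegf), amphiregulin (Areg), epiregulin (Ereg), TGF-alpha (Tgfa) and betacellulin (Btc), whereas neuregulin-1 (Nrg1) binds Erbb3 and Erbb4. Erbb2 has no known ligand of its own and serves as the partner of the others, and Erbb3 has a weak kinase and signals through its partners. Most ligands are made as membrane proteins that metalloproteases cut free, and in heart cells shedding of HB-EGF is a known way by which G protein-coupled receptors engage Egfr. Neuregulin-1 signalling through Erbb4 and Erbb2 is known to be required for forming the trabeculae of the embryonic heart and to support adult cardiomyocytes.

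Promoter sequences from RefSeq (GRCm38.p6), matched by symbol, were used for 6 of the 10 genes. Hbegf, Ereg, Nrg1 and Erbb3 were not among them, which does not mean that RefSeq holds no sequence for these genes. Their promoters were not examined, so the ligands shown do not stand for all those that rose. The 250 bases upstream of the start are shown for 2 ligands that rose with PE (Areg and Tgfa) and for the 2 receptors that fell with the lincRNA-p21 GapmeR (Egfr and Erbb4), 5′ to 3′ on the gene's own strand. Capitals mark matches to the motifs searched on both strands: the AP-1 site TGANTCA, the cyclic AMP response element (CRE) TGACGTCA, the Sp1 site GGGCGG, which reads CCGCCC when it lies on the other strand, and the TATA box TATAAA. The windows are chr5:91139349-91139598 (plus strand) for Areg, chr6:86194972-86195221 (plus) for Tgfa, chr11:16751953-16752202 (plus) for Egfr and chr1:69108060-69108309 (minus) for Erbb4.
Areg: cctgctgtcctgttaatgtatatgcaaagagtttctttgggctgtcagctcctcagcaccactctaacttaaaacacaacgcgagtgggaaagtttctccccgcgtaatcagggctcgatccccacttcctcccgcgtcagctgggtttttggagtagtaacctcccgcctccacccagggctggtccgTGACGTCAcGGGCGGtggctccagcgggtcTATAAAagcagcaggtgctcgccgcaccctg
Tgfa: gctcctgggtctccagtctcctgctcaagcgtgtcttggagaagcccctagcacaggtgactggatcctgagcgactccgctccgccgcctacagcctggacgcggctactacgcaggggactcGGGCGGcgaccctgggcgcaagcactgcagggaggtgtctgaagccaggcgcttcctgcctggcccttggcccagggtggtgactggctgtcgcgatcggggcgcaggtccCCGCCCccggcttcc
Egfr: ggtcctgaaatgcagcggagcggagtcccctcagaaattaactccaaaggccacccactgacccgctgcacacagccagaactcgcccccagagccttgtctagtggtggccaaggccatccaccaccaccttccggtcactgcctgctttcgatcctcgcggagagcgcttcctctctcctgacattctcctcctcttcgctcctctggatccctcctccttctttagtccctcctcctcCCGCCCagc
Erbb4: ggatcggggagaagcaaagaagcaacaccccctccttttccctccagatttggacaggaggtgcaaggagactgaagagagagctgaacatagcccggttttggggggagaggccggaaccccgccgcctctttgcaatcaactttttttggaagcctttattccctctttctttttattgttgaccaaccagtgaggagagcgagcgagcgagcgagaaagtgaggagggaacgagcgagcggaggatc

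Areg had a CRE 61 to 54 bases upstream of its start, an Sp1 site at 52 to 47 and a TATA box at 31 to 26. Tgfa had 2 Sp1 sites, at 126 to 121 and at 15 to 10 bases upstream, and Egfr had 1, at 9 to 4. Erbb4 had no match to any of the 4 motifs, and none of the 4 windows shown had an AP-1 match. Among 32851 RefSeq promoter windows of the same length, 1.55% held the CRE, 6.75% the AP-1 site, 32.7% the Sp1 site and 12.4% the TATA box. The 4 motifs do not overlap each other in these windows. A match is a description of the letters, not evidence of binding.

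Ereg, Areg and Btc lie near each other on mouse chromosome 5. On GRCm38 with GENCODE M21, Ereg (ENSMUSG00000029377.6) spans chr5:91074622-91093646, Areg (ENSMUSG00000029378.6) chr5:91139599-91148432, both on the plus strand, and Btc (ENSMUSG00000082361.7) chr5:91357261-91402994 on the minus strand. Hbegf (ENSMUSG00000024486.7) lies at chr18:36504927-36515805 on the minus strand and Tgfa (ENSMUSG00000029999.15) at chr6:86195223-86275719 on the plus strand. Egfr (ENSMUSG00000020122.17, chr11:16752203-16918158) and Erbb2 (ENSMUSG00000062312.6, chr11:98412470-98437716) are both on the plus strand of chromosome 11. Erbb3 (ENSMUSG00000018166.9) spans chr10:128567523-128589652 on the minus strand. Nrg1 (ENSMUSG00000062991.10, chr8:31814551-32884029) and Erbb4 (ENSMUSG00000062209.16, chr1:68032186-69108059), both on the minus strand, are by far the longest, at 1069 kb and 1076 kb. The values count reads over whole genes, so isoforms and exons were not separated.

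Values below are normalised read counts, that is, reads of a gene over the size factor of its library. Recovered reads in genes ran from 21325485 to 22139681 per library, and mitochondrial genes held 4.33% to 10.7% of them. Trp53cor1 (ENSMUSG00000085912.3), the targeted RNA, was at 59.8, 70.6 and 63.2 in PBS with the control GapmeR and at 12.7, 22.6 and 10.1 with the lincRNA-p21 GapmeR. In PE the same RNA was at 56.0, 34.0 and 34.7 against 8.56, 9.97 and 8.93, so no library went against its label. Its level was 76.6% lower in PBS and 78.0% lower in PE. Earlier work on these data had set apart 3 libraries, called distant below: replicate 2 of the PBS control, replicate 2 of the PBS knockdown and replicate 1 of the PE knockdown group. Over genes, the SD of their log2 difference from the other 2 libraries of the group was 0.262, 0.373 and 0.284. For the other 9 it was 0.153 to 0.271, the highest being replicate 1 of the PBS knockdown. All 10 cardiomyocyte markers were tested, and their summed level ran from 691147 to 1588678 over the 12 libraries. Markers of fibroblasts, endothelium, smooth muscle and pericytes, leukocytes and epicardium were present too, so the cultures were mixed, and in such bulk samples fewer cells of a type and less RNA per cell cannot be told apart.

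Per kilobase of exon, the unit used here to set levels of different genes beside each other, Erbb2 was the most abundant receptor in every group. With PBS and the control GapmeR it had 308 normalised read counts per kb, against 80.5 (75.3 to 83.2 over the 3 libraries) for Erbb4, 64.8 (61.9 to 68.5) for Egfr and 37.8 (34.4 to 44.5) for Erbb3. The ranges of the 4 receptors did not overlap. Among the ligands, Tgfa had 73.8 per kb (70.9 to 79.3), Ereg 70.1 (64.9 to 73.2) and Hbegf 54.4 (49.6 to 62.8). Tgfa and Ereg overlapped, while Hbegf lay below both. Nrg1 followed with 27.2 per kb, then Btc with 8.67 and Areg with 3.54. Areg was counted with 1 to 40 reads per library and Btc with 25 to 59, so their values carry the largest counting error.

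The effect of PE was asked first in cells with the control GapmeR. PE raised 5 of the 6 ligands: Hbegf, Ereg, Areg, Nrg1 and Tgfa. Of the 4 receptors, Erbb4 fell and no receptor rose. With the limma fit at a Benjamini-Hochberg adjusted p of 0.05, 5 of the 10 members were called higher and 1 lower, where 12.6% of all tested genes were called higher and 12.8% lower. The 2 groups of libraries did not overlap for 8 of the 10 members, against 41.7% of all tested genes.

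**Figure D1:**
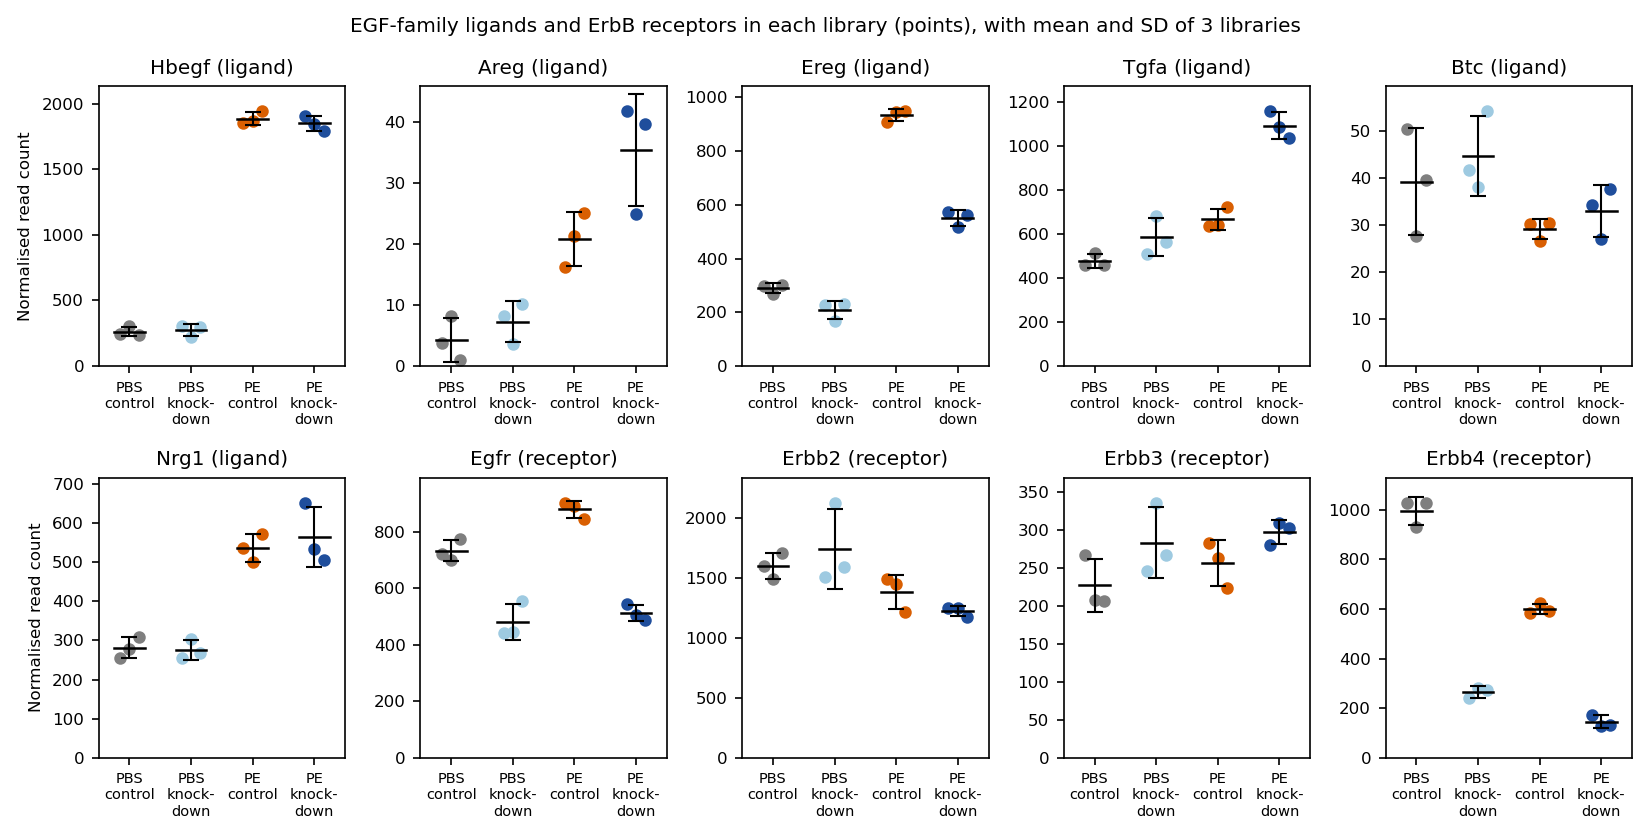
Normalised read count of each of the 10 genes in each library (points; 3 per group), with the mean and SD of the 3 libraries, for PBS and PE with the control or the lincRNA-p21 GapmeR; each panel has its own axis from 0. Hbegf rises from 223–305 in the 6 PBS libraries to 1793–1940 in the 6 PE libraries. Erbb4 is at 931–1028 in PBS with the control GapmeR and at 127–174 in PE with the lincRNA-p21 GapmeR.

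Hbegf, the heparin-binding ligand of Egfr and Erbb4, rose most. It was at 245, 304 and 240 with PBS and at 1850, 1867 and 1940 with PE. Every PE library lay above every PBS library, and the means (263 ± 35.6 and 1885 ± 47.8, SD, n = 3) differed 7.18-fold. The limma log2 change was 2.85 ± 0.12 (SE; adjusted p = 4.4e-12), 41st from the highest of 21799 tested genes.

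Ereg, a ligand of Egfr and Erbb4, was at 298, 268 and 302 with PBS and at 907, 944 and 947 with PE. The groups were far apart, with means differing 3.22-fold and a log2 change of 1.69 ± 0.12 (adjusted p = 4.3e-09). Areg, a ligand of Egfr that is low here, was at 3.8, 8.18 and 0.944 with PBS and at 16.2, 21.3 and 25.0 with PE. All PE libraries exceeded all PBS libraries, though the PBS libraries themselves ranged widely. Its log2 change was 2.29 ± 0.47 (adjusted p = 0.0012, 95% interval 1.29 to 3.28), so its size is much less certain than that of Hbegf. Btc, a neighbour of both on chromosome 5, was at 50.3, 27.6 and 39.6 against 30.2, 26.6 and 30.4. The groups overlapped, and the log2 change of −0.38 ± 0.25 was not called (adjusted p = 0.3, 95% interval −0.91 to 0.14).

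Nrg1, the neuregulin that binds Erbb3 and Erbb4, was at 256, 279 and 309 with PBS and at 536, 502 and 573 with PE. The PE libraries were all higher, 1.91-fold in the mean (log2 change 0.93 ± 0.12, adjusted p = 1.1e-05). Tgfa, a ligand of Egfr, rose least of the 5, from 460, 514 and 462 to 639, 642 and 724. Its groups did not overlap either, and the means differed 1.40-fold (log2 change 0.48 ± 0.11, adjusted p = 0.0035).

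Among the receptors, Erbb4 fell from 1026, 931 and 1028 to 583, 625 and 592. No PE library reached the lowest PBS library, and the mean was 39.7% lower (log2 change −0.73 ± 0.13, adjusted p = 2.0e-04). Egfr was at 723, 701 and 776 with PBS and at 902, 892 and 846 with PE. These groups did not overlap, but the log2 change of 0.26 ± 0.11 was not called (adjusted p = 0.081, 95% interval 0.04 to 0.49). The same change was called by limma in 2 of 22 alternatives of the analysis. These were the fit to only the 6 libraries compared (adjusted p = 0.026) and the fit without PBS knockdown replicate 2 (adjusted p = 0.042). That library enters only through the shared variance. Erbb2 was at 1600, 1494 and 1713 against 1488, 1446 and 1218, also without overlap and not called (log2 change −0.21 ± 0.12, adjusted p = 0.21, 95% interval −0.46 to 0.04). Erbb3 overlapped between the groups (227 ± 34.9 and 257 ± 30.4), with an interval of −0.12 to 0.48 on the log2 scale.

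The same comparison was made in cells with the lincRNA-p21 GapmeR, from other libraries. Again the 5 ligands rose and Btc was not called, and 2 receptors fell, Erbb4 and Erbb2. Of the 10 members, 5 were called higher and 2 lower, against 13.4% and 14.0% of all tested genes, and 8 did not overlap, against 38.7%. Hbegf was at 305, 223 and 300 with PBS and at 1906, 1847 and 1793 with PE, a 6.70-fold difference (log2 change 2.75 ± 0.12, adjusted p = 1.1e-11). Its PBS and PE libraries were as clearly separate as with the control GapmeR. Ereg rose 2.64-fold, Areg 4.87-fold, Nrg1 2.05-fold and Tgfa 1.87-fold, with log2 changes of 1.41 ± 0.12, 2.20 ± 0.47, 1.03 ± 0.12 and 0.91 ± 0.11. Their adjusted p-values were 5.8e-08, 0.0015, 3.3e-06 and 5.3e-06. Erbb4 was 45.6% lower (log2 change −0.88 ± 0.13, adjusted p = 2.4e-05).

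Erbb2, the shared partner, was at 1512, 2127 and 1593 with PBS and at 1251, 1247 and 1175 with PE in these cells. The PE libraries were all lower, by 29.8% in the mean (log2 change −0.49 ± 0.12, adjusted p = 0.0039), and PBS knockdown replicate 2 stood above the rest. Egfr (log2 change 0.10 ± 0.11, adjusted p = 0.54, 95% interval −0.12 to 0.32) and Erbb3 (0.08 ± 0.14, adjusted p = 0.73, 95% interval −0.22 to 0.39) were not called. Btc was at 41.7, 38.0 and 54.1 against 34.3, 26.9 and 37.7, without overlap but not called (log2 change −0.42 ± 0.25, adjusted p = 0.24).

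**Figure D2:**
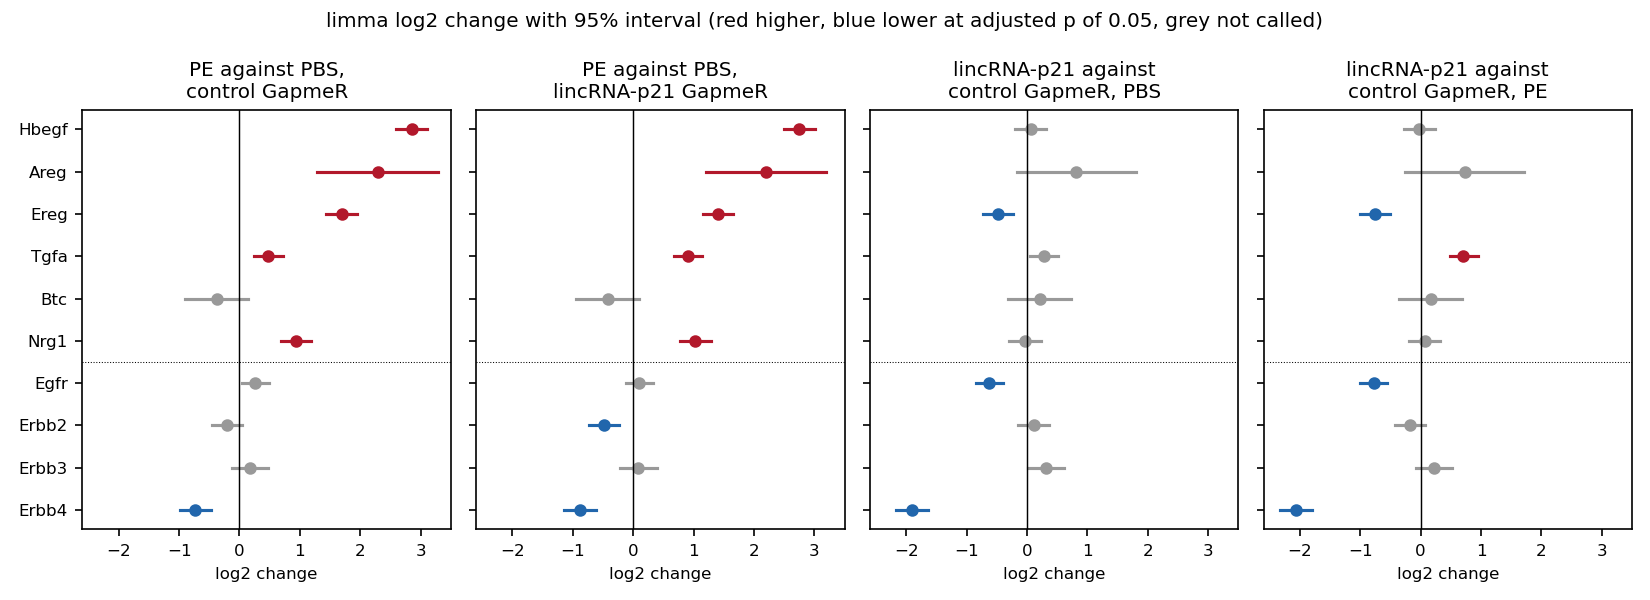
Log2 change of each gene (x axis) with its 95% interval from the limma fit, for PE with each GapmeR and for the lincRNA-p21 GapmeR in PBS and in PE; ligands are above the dotted line and receptors below. Hbegf has the highest change with PE (2.85 and 2.75), and Erbb4 the lowest with the lincRNA-p21 GapmeR (−1.91 and −2.06).

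Marker genes of several cell types moved with PE as well. Of all tested genes, 12.6% were called higher and 12.8% lower with PE and the control GapmeR. With the control GapmeR, 10 of 12 fibroblast markers fell and none rose, and their summed level went from 81577–86860 to 46710–50770. Of 14 endothelial markers 11 rose and 1 fell (summed level 6616–7731 to 12329–13962), and of 12 leukocyte markers 8 rose (2760–3429 to 3818–4412). Of 10 cardiomyocyte markers 4 rose and 1 fell (833097–920028 to 1295935–1588678), 4 smooth muscle and pericyte markers of 10 were higher and 5 lower (31090–34730 to 56424–58347), and of 10 epicardial markers 3 rose and 2 fell (8956–9637 to 13024–15180). The rise of the cardiomyocyte sum lay mostly in Myh6 (mean 323169 to 604630) and Actc1 (181634 to 431619). In the smooth muscle and pericyte list and in the epicardial list, 1 gene carried the higher sum. Without Acta2, which encodes smooth muscle actin, the smooth muscle and pericyte sum went from 12081–12660 to 10412–11284 (median log2 change of the list −0.79), and without Krt18, a simple keratin gene, the epicardial sum was 8472–9041 and 8431–8897. Schwann cell markers, a cell type in which Erbb3 is known to be high, summed to 429–521 and 466–483, with 1 of 6 tested markers higher and 3 lower, and Foxd3 and Gfra3 were under the filter. Without Mbp their sum went from 126–163 to 76–90.5. The part of these shifts in the changes of the ligands and of Erbb4 was not tested.

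The next comparison set the lincRNA-p21 GapmeR against the control GapmeR. In PBS, Erbb4, Egfr and Ereg fell and none of the 10 genes rose. In PE, these 3 fell again and Tgfa rose. In PBS, 0 members were called higher and 3 lower, against 1.36% and 3.21% of all tested genes. Both edgeR fits and DESeq2 called 0 higher there as well. In PBS, 5 of the 10 members had an unadjusted limma p under 0.05, against 3819 of the 21799 tested genes. Without the 3 distant libraries, Hbegf (log2 change 0.32) and Areg (1.72) were called higher in PBS as well. In PE, 1 was called higher and 3 lower, against 4.57% and 7.14%. The members whose groups did not overlap were 3 in PBS, against 22.0% of tested genes, and 4 in PE, against 30.5%. The comparisons in PBS and in PE use different libraries. Each of them shares its libraries with the PE comparisons above.

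Erbb4, the neuregulin receptor of cardiomyocytes, was at 1026, 931 and 1028 in PBS with the control GapmeR and at 239, 283 and 273 with the lincRNA-p21 GapmeR. In PE it was at 583, 625 and 592 against 174, 127 and 132. The groups were wide apart in both, and the mean was 73.3% lower in PBS (995 ± 55.6 to 265 ± 22.9) and 75.9% lower in PE (600 ± 22.2 to 144 ± 26.2). The log2 changes were −1.91 ± 0.13 in PBS (adjusted p = 1.5e-08) and −2.06 ± 0.13 in PE (adjusted p = 2.8e-09). These were the 33rd and the 20th lowest of 21799 tested genes. Egfr, the receptor of the other ligands, was at 723, 701 and 776 against 443, 444 and 555 in PBS. In PE it was at 902, 892 and 846 against 545, 505 and 488. Neither pair of groups overlapped, and Egfr was 34.5% lower in PBS (log2 change −0.62 ± 0.11, adjusted p = 0.0016) and 41.7% lower in PE (−0.78 ± 0.11, adjusted p = 4.6e-05).

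The other 2 receptors were not called. For Erbb2 the log2 change was 0.11 ± 0.12 in PBS (adjusted p = 0.7, 95% interval −0.14 to 0.36) and −0.17 ± 0.12 in PE (adjusted p = 0.44, 95% interval −0.42 to 0.08). Erbb3 was at 268, 208 and 207 against 246, 336 and 268 in PBS and at 283, 264 and 224 against 280, 310 and 303 in PE. Both pairs overlapped, with intervals of 0.01 to 0.62 (adjusted p = 0.26) and −0.08 to 0.52 (adjusted p = 0.41).

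Of the ligands, Ereg was at 298, 268 and 302 against 226, 169 and 232 in PBS, and at 907, 944 and 947 against 574, 517 and 561 in PE. The libraries with the lincRNA-p21 GapmeR were all lower, by 27.8% in PBS and 40.9% in PE. The fall in PE (log2 change −0.76 ± 0.12, adjusted p = 2.5e-04) was called under every alternative of the analysis. The fall in PBS (−0.48 ± 0.12, adjusted p = 0.027) was not called without PBS control replicate 1 (adjusted p = 0.11), PBS control replicate 3 (adjusted p = 0.11) or PBS knockdown replicate 2 (−0.33, adjusted p = 0.069). Tgfa went the other way in PE, from 639, 642 and 724 to 1159, 1089 and 1037. Every library with the lincRNA-p21 GapmeR exceeded every control, 1.64-fold in the mean (log2 change 0.71 ± 0.11, adjusted p = 2.2e-04). In PBS, Tgfa was at 460, 514 and 462 against 512, 683 and 565. Those groups overlapped, and the change was not called (0.28 ± 0.11, adjusted p = 0.18, 95% interval 0.05 to 0.52).

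Hbegf and Nrg1, both raised by PE, had intervals close around 0 here. The log2 change of Hbegf was 0.06 ± 0.12 in PBS (95% interval −0.19 to 0.32) and −0.03 ± 0.12 in PE (−0.28 to 0.23). Nrg1 had −0.03 ± 0.12 in PBS (−0.29 to 0.23) and 0.07 ± 0.12 in PE (−0.19 to 0.32). The low ligands were less certain: Areg was at 16.2, 21.3 and 25.0 against 41.7, 24.9 and 39.7 in PE, overlapping by 1 library and not called (0.73 ± 0.47, adjusted p = 0.4, 95% interval −0.26 to 1.72). For Areg in PBS the change was 0.82 ± 0.47 (95% interval −0.17 to 1.81), and it was 0.23 without PBS control replicate 3 and 1.35 without PBS control replicate 2. Btc had intervals of −0.32 to 0.73 in PBS and −0.36 to 0.69 in PE.

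Whether the response to PE differed between the GapmeRs was tested by the interaction. No member passed (0 of 10, against 0.0550% of all tested genes). At an unadjusted limma p of 0.05, 1 of the 10 members passed, Tgfa, against 2143 of the 21799 tested genes. Both edgeR fits and DESeq2 called 0 of the 10. For Tgfa the difference in log2 change was 0.43 ± 0.16 (adjusted p = 0.4, 95% interval 0.10 to 0.76), for Ereg −0.28 ± 0.17 (−0.64 to 0.08), for Erbb2 −0.28 ± 0.17 (−0.63 to 0.07) and for Erbb4 −0.16 ± 0.18 (−0.53 to 0.22). The interval of Tgfa lies above 0, but its difference did not pass the adjustment over all genes. The intervals of Ereg, Erbb2 and Erbb4 include 0. The fall of Erbb2 with PE, called only in cells with the lincRNA-p21 GapmeR, was not shown to differ between the GapmeRs.

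These changes altered the makeup of the family. Summed per kb of exon, the 6 ligands went from 238 ± 7.94 in PBS to 794 ± 27.2 in PE with the control GapmeR, and stood at 241 ± 9.66 and 776 ± 35.8 with the lincRNA-p21 GapmeR (SD, n = 3). Hbegf went from 22.8% ± 2.3 of this sum in PBS to 49.1% ± 0.439 in PE. In PE the ligand sums of the 2 GapmeR groups overlapped (773 to 825 and 753 to 817), while Ereg made up 28.4% ± 0.649 with the control and 17.2% ± 0.681 with the lincRNA-p21 GapmeR, and Tgfa 13% ± 0.503 and 21.8% ± 0.586. Per kb, Ereg (226) stood above Tgfa (103) in PE with the control GapmeR, and Tgfa (169) above Ereg (133) with the lincRNA-p21 GapmeR. No test was run on shares, which move together by construction.

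**Figure D3:**
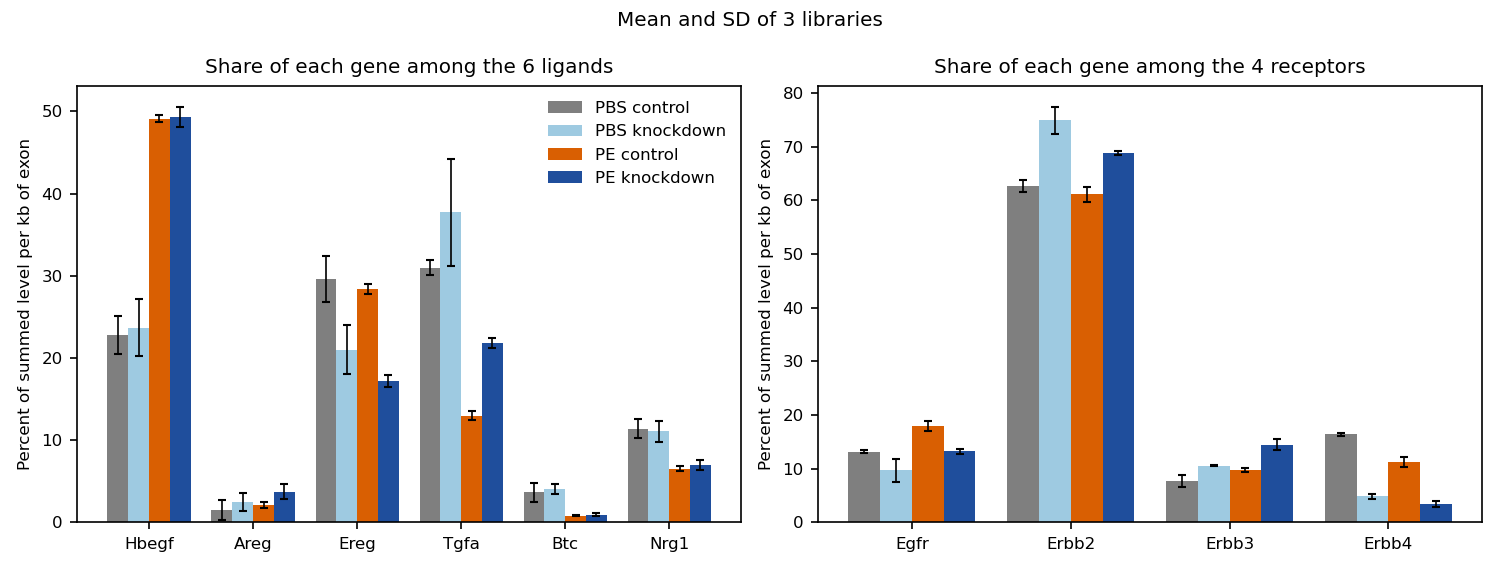
Percent of the summed level per kb of exon held by each of the 4 receptors and each of the 6 ligands (bars, mean of 3 libraries; error bars, SD), in the 4 groups. Erbb4 holds 16.4% of the receptor sum in PBS with the control GapmeR and 3.42% in PE with the lincRNA-p21 GapmeR, and Hbegf holds 49.1% and 49.3% of the ligand sum in the PE groups.

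Among the receptors, Erbb4 made up 16.4% ± 0.25 of the summed level in PBS and 11.2% ± 0.951 in PE with the control GapmeR, and 4.86% ± 0.459 and 3.42% ± 0.562 with the lincRNA-p21 GapmeR. The order of the receptors below Erbb2 differed between groups. In PBS with the control GapmeR it was Erbb4, Egfr, Erbb3, and in PE Egfr (77.7 per kb, 74.7 to 79.6) stood above Erbb4 (48.5, 47.2 to 50.6) and Erbb3 (42.7, 37.2 to 47.1). With the lincRNA-p21 GapmeR, Erbb4 was last, at 21.5 per kb in PBS and 11.7 in PE. There Erbb3 (47.1, 40.8 to 55.9) and Egfr (42.4, 39.1 to 49) overlapped in PBS, and in PE (49.5, 46.6 to 51.5 and 45.3, 43.1 to 48.1) they overlapped too.

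Other genes of the pathway were grouped by role. For all tested genes, the shares called higher and lower were 12.6% and 12.8% with PE and the control GapmeR. With PE and the lincRNA-p21 GapmeR they were 13.4% and 14.0%. For the lincRNA-p21 GapmeR itself they were 1.36% and 3.21% in PBS, and 4.57% and 7.14% in PE. Among the other EGF-family ligands, Nrg3 was listed at 0 in all libraries and 4 of 5 were tested. PE with the control GapmeR lowered 1 of them, Egf, from 96 ± 7.32 to 48.7 ± 12.6 (log2 change −0.99 ± 0.20, adjusted p = 0.0011), and raised none. The median over the 4 was −0.31, against a median near 0 over all tested genes. With the lincRNA-p21 GapmeR, PE lowered Egf (−1.03) and Nrg2 (−1.82 ± 0.31, adjusted p = 1.5e-04). The GapmeR itself lowered Nrg2 in PE (−1.07 ± 0.31, adjusted p = 0.027) and called none of the 4 in PBS. Epgn, which encodes epigen and lies on the same stretch of chromosome 5 at chr5:91027464-91035215, was not called in any comparison.

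Among 12 genes that shed or process the ligands, PE with the control GapmeR raised 4 and lowered none (median 0.22). These were the metalloproteases Adam8 (1.27 ± 0.13, adjusted p = 7.3e-07), Adam9 (1.01 ± 0.09, adjusted p = 4.3e-08) and Adam12 (0.64 ± 0.12, adjusted p = 3.4e-04), and Furin (0.92 ± 0.13, adjusted p = 2.7e-05), a protease that matures other proteases. Adam17, a main sheddase of these ligands, was not called (−0.07 ± 0.10, adjusted p = 0.66). With the lincRNA-p21 GapmeR the same comparison called 4 higher, and 2 lower, Adam10 (−0.37) and Rhbdf1 (−0.34). The GapmeR itself lowered 1 of the 12 in PBS and 2 in PE. Adam12, known to shed HB-EGF in cardiomyocytes, was the one in PBS, from 681, 761 and 725 to 316, 383 and 363 (−1.03 ± 0.12, adjusted p = 1.5e-05). It fell again in PE, from 1128 ± 62.1 to 509 ± 77.1 (−1.16 ± 0.12, adjusted p = 1.2e-06), beside Adam19 (−0.42). The libraries of Adam12 in PBS did not overlap, and every one with the lincRNA-p21 GapmeR was below every control.

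Of 31 genes that relay the signal, PE with the control GapmeR raised 3 and lowered 9 (median −0.08). The 4 with the largest changes were the PI3-kinase subunit gene Pik3r1 (−0.88 ± 0.10, adjusted p = 1.1e-06), the phospholipase gene Plcg1 (−0.61 ± 0.09, adjusted p = 7.2e-05), Hras (0.59 ± 0.10, adjusted p = 2.1e-04) and the adaptor gene Gab1 (−0.56 ± 0.11, adjusted p = 8.2e-04). With the lincRNA-p21 GapmeR, 2 rose and 12 fell with PE (median −0.16). With the GapmeR itself, the adaptor gene Shc2 rose in PBS (0.70 ± 0.16, adjusted p = 0.012) and in PE (0.55 ± 0.16, adjusted p = 0.024). In PE, Plcg1 rose too (0.41 ± 0.09, adjusted p = 0.0072), and Sos1, which encodes an exchange factor that activates Ras, fell (−0.43 ± 0.11, adjusted p = 0.013).

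Among 23 genes of feedback and receptor turnover, PE with the control GapmeR raised 9 and lowered 1 (median 0.24). Errfi1, which encodes the Egfr and Erbb2 inhibitor Mig-6, went from 312 ± 27.6 to 2169 ± 163 (2.79 ± 0.11, adjusted p = 2.2e-12), a rise of nearly the size of that of Hbegf. Spry4 (1.27 ± 0.10), an inhibitor of the MAP kinase cascade, and the MAP kinase phosphatase genes Dusp5 (0.90 ± 0.13) and Dusp6 (0.85 ± 0.10) rose too. With the lincRNA-p21 GapmeR, 6 rose with PE and 1 fell, Errfi1 among the higher (2.38 ± 0.11, adjusted p = 2.5e-11). The GapmeR itself called 1 higher and 2 lower in PBS, and 1 higher and 4 lower in PE. In PBS these were Dusp4 (0.53) and, lower, Spry1 (−0.45) and Erbin (−0.34), the last encoding a protein that binds Erbb2. In PE, Dusp6 (−0.47), Spry1 (−0.47), Erbin (−0.45) and Socs5 (−0.44) fell.

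**Figure D4:**
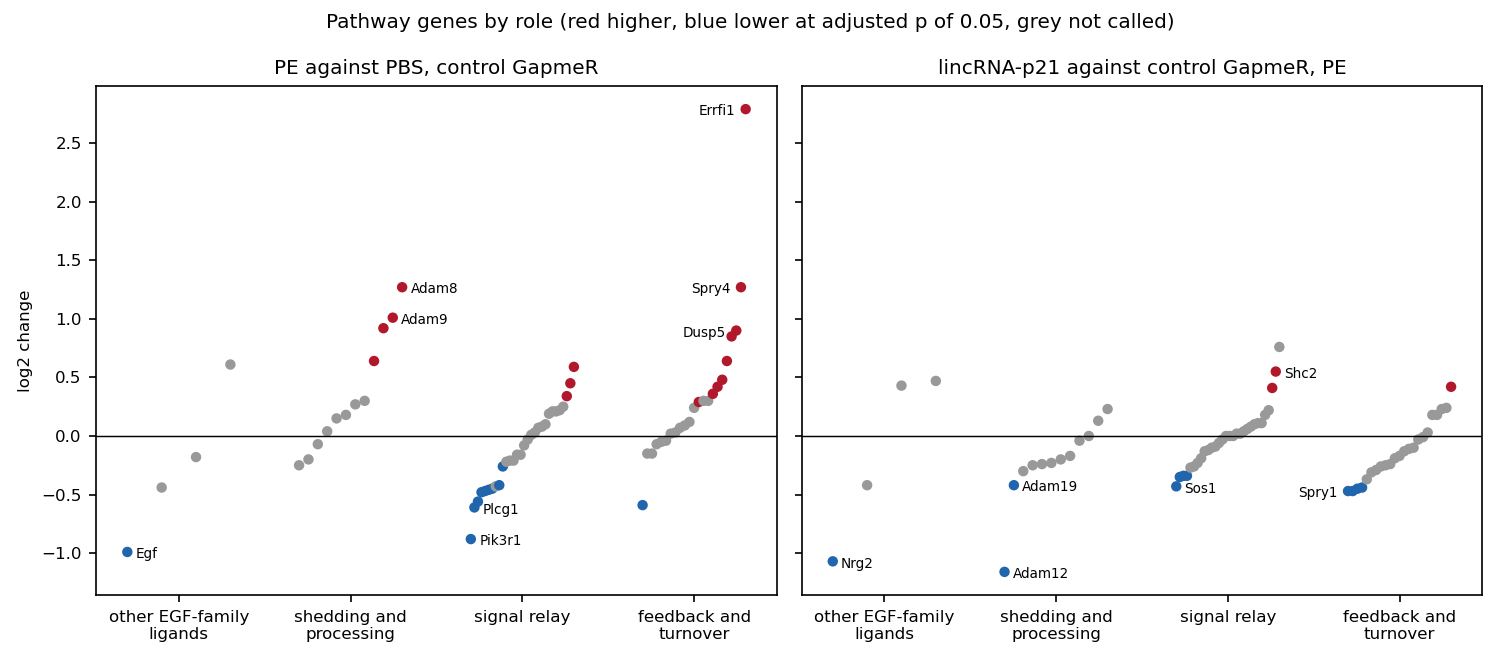
Log2 change (y axis) of the tested genes of the 4 pathway lists, by role and without 1 gene of the signal relay list, for PE with the control GapmeR (left) and for the lincRNA-p21 GapmeR in PE (right); colours mark genes called at an adjusted p of 0.05. Errfi1 is the highest feedback gene with PE (2.79 with the control GapmeR), and Adam12 the lowest shedding gene with the lincRNA-p21 GapmeR (−1.16).

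A larger share of long genes than of short genes was called lower with the lincRNA-p21 GapmeR, and Erbb4 and Egfr are long. Of 19336 tested genes spanning under 100 kb, 1.6% were called lower in PBS and 3.98% in PE. Of 2150 genes spanning 100 to under 500 kb, which include Egfr (166 kb) and Adam12 (349 kb), 14.9% and 32% were called lower. Of 139 genes spanning 500 to under 1000 kb, 38.8% and 59% were called lower. Of 49 genes spanning at least 1000 kb, 32.7% (16 genes) and 36.7% (18 genes) were called lower, with median log2 changes of −0.65 and −0.63. Erbb4 (1076 kb) lay well below that median in both, and Nrg1 (1069 kb), the other member of this length, had −0.03 and 0.07. Ereg spans 19 kb, and it fell too. With PE and the control GapmeR, 28.6% of genes of at least 1000 kb were called lower and 12.2% higher. Of genes under 100 kb, 11.9% were called lower and 12.3% higher there. With PE and the lincRNA-p21 GapmeR these shares were 32.7% and 4.08%, against 12.1% and 13.7%. The part of gene length in the fall of Erbb4 with PE, or of Erbb4 and Egfr with the GapmeR, was not tested.

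**Figure D5:**
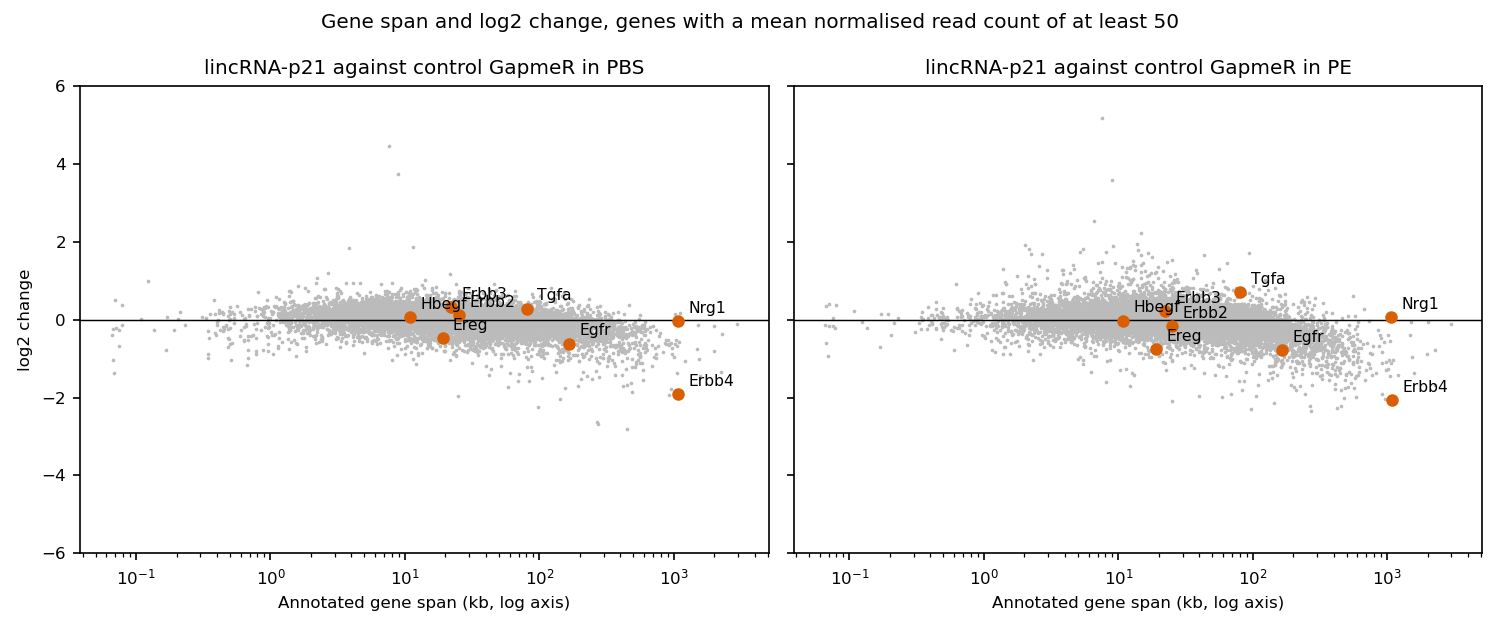
Log2 change between the lincRNA-p21 and the control GapmeR (y axis) against the annotated span of the gene in kb (log axis), in PBS and in PE, for 12097 genes with a mean normalised read count of at least 50; the members above that mean are marked (Areg and Btc are below it). Erbb4 and Nrg1 have nearly the same span and lie apart, at −1.91 and −0.03 in PBS and at −2.06 and 0.07 in PE.

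Fewer cell type markers were called with this GapmeR than with PE, and fewer of all tested genes were called too. PE called 5543 of 21799 tested genes with the control and 5967 with the lincRNA-p21 GapmeR. The lincRNA-p21 GapmeR itself called 997 in PBS and 2553 in PE. In PBS no cardiomyocyte, endothelial, smooth muscle or Schwann cell marker was called, 2 of 12 fibroblast markers fell, and 1 epicardial and 1 leukocyte marker rose. In PE the calls, all lower, were 1 of 10 cardiomyocyte, 3 of 12 fibroblast, 2 of 14 endothelial, 3 of 10 smooth muscle and pericyte, 1 of 6 Schwann cell and 1 of 10 epicardial markers. The summed cardiomyocyte markers were nonetheless below the controls in every library with the lincRNA-p21 GapmeR, at 691147–751411 against 833097–920028 in PBS and at 1039908–1115692 against 1295935–1588678 in PE. Fibroblast markers summed to 72886–86642 against 81577–86860 in PBS and to 38300–41897 against 46710–50770 in PE. The smooth muscle and pericyte sum was also lower without overlap, at 26138–27631 against 31090–34730 in PBS and at 40908–44365 against 56424–58347 in PE. Without Acta2 these sums overlapped in PBS (9077–12567 against 12081–12660) and not in PE (8061–8501 against 10412–11284). The endothelial sum was lower in PE (10309–12214 against 12329–13962), while in PBS its groups overlapped. Without Eng, an endothelial marker on the list, the sums in PE overlapped too (5461–6394 against 6340–6921). The epicardial sum was higher in PBS (10032–10428 against 8956–9637) and overlapped in PE. Schwann cell markers summed to less in PE (401–455 against 466–483), and the leukocyte sums overlapped in both. Mitochondrial genes held 4.33% to 7.55% of reads in PBS with the lincRNA-p21 GapmeR against 8.19% to 10.7% with the control, without overlap, whereas in PE the groups overlapped (6.55% to 10.04% against 6.36% to 9.28%). The part of these sums and of the mitochondrial share in the falls of Erbb4, Egfr and Ereg was not tested.

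The genes whose log2 values followed Hbegf most closely over the 12 libraries, among 12113 genes with a mean of at least 50, were Ptgs2 (Pearson r = 0.997), Ccl9 (0.995) and Ddx21 (0.995). Ptgs2, which encodes the inducible cyclooxygenase, had group means of 62.9, 64, 663 and 651 (PBS control, PBS lincRNA-p21, PE control, PE lincRNA-p21), so it too was high in both PE groups alone. For Erbb4 they were Kcnh7 (0.994, spanning 491 kb), Ctnna3 (0.988, 1574 kb) and Gpc6 (0.988, 1051 kb). Kcnh7, a potassium channel gene, had group means of 660, 283, 483 and 182 in the same order. The r values describe the closest of many genes over libraries that share the 4 treatments, and they carry no p-value.

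Exons of 4 members overlap another annotated gene, and the use of strand in counting was not given, so reads in the overlap cannot be assigned. Ereg shares up to 141 bases with Gm19610, whose mean value was 15.5 against 495 for Ereg. Tgfa shares 118 bases with Gm43917 (0.415 against 707), and Erbb2 9 bases with Mien1 (296 against 1489). Nrg1 shares 482 bases with ENSMUSG00000097928, which was not analysed here.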

How the data were processed

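Polyadenylated RNA was sequenced in 12 libraries as paired-end reads of 100 bp. Per the submitters' processing notes, STAR, SAMtools and featureCounts were used with GRCm38.p6; for these the sources used here name no version, annotation release or strand setting. The deposited table holds signal: the reads of a gene over a size factor of its library (0.921 to 1.11), since dividing each column by its smallest step gave whole numbers for 100% of values (tolerance 0.001). The table has 55416 genes and 0 columns of no sample. Symbols and positions came from GENCODE M21 (52083 genes matched; the rest held 0.2% of the signal).

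The 21799 genes with a mean of 1 or more entered the test, as log2(value + 1), so fold changes of low genes are understated. A model with 4 group means over all 12 libraries was fitted with limma 3.58.1 (R 4.3.3, trended prior), with two-sided tests and Benjamini-Hochberg adjustment over all genes at 0.05. The 5 comparisons were PE with each GapmeR, the GapmeRs within PBS and PE, and the interaction. The script was tested on simulated data. Because the unit was not raw counts, edgeR 4.0.16 and DESeq2 1.42.0 on the recovered reads served as alternatives. Levels per kb used exon length.

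Between replicates, chi-square over its degrees of freedom was 2.42 to 53.5, so none is a copy of another. Replicate numbers were not used to pair the libraries in the main fit. The labels do not say whether same-numbered libraries belong together.

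The members, the pathway and marker lists and the naming rule were chosen with earlier results of these data known. Named were all 10 members, Trp53cor1, up to 4 called genes with the largest change per pathway list and comparison, and the 3 genes most like Hbegf and Erbb4. Genes outside the rule (Adam17, Epgn) were named for their role. One result of the signal relay list is not reported here.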

Additional observations from a re-analysis of the deposited data

How the results depend on the processing

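Recomputing the 50 member values under 22 alternatives (other pseudocount, filters, tools, scaling, libraries) gave 1090 values. Of 20 called values, 19 stayed called with the same direction in every one; the exception was Ereg with the GapmeR in PBS, also lost with the same total per library (−0.41, adjusted p = 0.072) and with only the 6 libraries compared (adjusted p = 0.17). Of 30 values not called, 4 were called somewhere, among them Erbb2 with PE and the control GapmeR (same total, −0.37, adjusted p = 0.028; without the 3 distant libraries, −0.26, adjusted p = 0.016) and, without those 3, Hbegf (0.32, adjusted p = 0.02) and Areg (1.72, adjusted p = 0.019) with the GapmeR in PBS, which makes 5 members in place of 3.

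Signs changed for 29 values, none of them called. With the same total they were −0.04 for Egfr and −0.06 for Erbb3 (PE with the lincRNA-p21 GapmeR), 0.04 for Nrg1 (GapmeR in PBS) and 0.06 for Hbegf (GapmeR in PE). Without the 3 distant libraries they were −0.09 for Erbb2 (GapmeR in PBS), −0.04 for Nrg1 (GapmeR in PE), and 0.05 for Btc and 0.14 for Erbb3 (interaction). The interaction of Btc was 0.00 by both edgeR fits and DESeq2. Leaving out 1 library, the range was −0.01 to 0.21 for Erbb3 (PE with the lincRNA-p21 GapmeR). With the GapmeR in PBS it was −0.01 to 0.21 for Hbegf, −0.02 to 0.40 for Btc, −0.10 to 0.04 for Nrg1 and −0.04 to 0.20 for Erbb2, and in PE −0.04 to 0.14 for Nrg1. For the interaction it was −0.62 to 0.50 for Areg, −0.24 to 0.18 for Btc, −0.01 to 0.17 for Nrg1 and −0.22 to 0.03 for Erbb3.

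Over all genes, the GapmeR in PBS changed 997 genes, 392 with only the 6 libraries compared, 1865 without the 3 distant libraries and 510 to 1181 leaving out 1 library (558 without PBS control replicate 1, 510 without replicate 3). In PE it changed 2553 genes, 4672 without the 3 distant libraries and 1671 to 3502 leaving out 1 (1671 without replicate 2 of PE knockdown, 1701 without replicate 2 of PE control). The interaction called 12, 124 by DESeq2, 143 without the 3 distant libraries and 3 (without PBS control replicate 3) to 22 (without PE control replicate 1) leaving out 1. The cause was not tested. The same total per library moved the median log2 change of genes with a mean of at least 50 from 0.01 to −0.15 (PE, control GapmeR), −0.00 to −0.15 (PE, lincRNA-p21 GapmeR), 0.01 to 0.08 (GapmeR in PBS) and −0.00 to 0.08 (GapmeR in PE). Lower calls went, as a share of calls, from 50.5% to 71.8%, 51.1% to 69.3%, 70.2% to 51% and 60.9% to 42.3%.

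The replicate block called 6, 7, 3, 4 and 0 members, the same counts as without it, in the order of the 5 comparisons, and 5171, 5708, 822, 2269 and 12 genes. Same-numbered libraries had residual correlations of −0.435 to 0.409 over 18 pairs, and 3 of 12 libraries correlated best with their own number. With 3 libraries per group, these correlations cannot decide whether same-numbered libraries shared a culture or preparation, and the labels do not say. Low counts limit Areg (1 to 40 reads) and Btc (25 to 59).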
